A study of Mus musculus with 17 samples.

Results

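The p53 family and its feedback regulators are described here as 9 genes: the transcription factors Trp53, Trp63 and Trp73, the negative regulators Mdm2, Mdm4, Ppm1d and Ccng1, and the p53-inducible effectors Trp53inp1 and Zmat3. Members were the probes whose gene name on the array equals one of these symbols, which gave 9 of 35019 gene names and 16 probes. The samples, intestinal stem cells per their labels, were sorted as LGR5hi or LGR5lo from LGR5-GFPki mice. This is a knock-in reporter line in which green fluorescent protein marks Lgr5 expression. Every mouse carried this reporter. The groups were LGR5hi cells taken 3 h after 12 Gy of gamma-irradiation (IR LGR5hi, 4 arrays), non-irradiated LGR5hi cells (NIR LGR5hi, 4 arrays), irradiated LGR5lo cells (IR LGR5lo, 4 arrays) and non-irradiated LGR5lo cells (NIR LGR5lo, 5 arrays). Each group held 2 female samples, and its other samples were male. The labels give neither age nor strain background and do not say whether cells of several mice were pooled or whether samples came from separate mice. The p-values therefore measure the spread between these samples, which may in part be technical.

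p53 is held at a low level in resting cells because Mdm2, a ubiquitin ligase, binds it and marks it for degradation, while the related protein Mdm4 masks its activation domain. DNA breaks activate kinases that release p53 from both, and p53 then drives transcription of arrest, repair and cell death genes together with its own inhibitors, which closes a negative feedback loop. In the intestinal crypt this response to gamma-irradiation is known for arrest and apoptosis of epithelial progenitor cells within hours. These arrays measure RNA and not the amount or modification of p53 protein.

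The sort and the tissue were checked against marker genes. Lgr5, the R-spondin receptor used for the sort, was higher in LGR5hi than in LGR5lo cells by 2.89 ± 0.29 log2 after irradiation and by 3.14 ± 0.28 log2 without it, and 12 of 13 stem cell markers were higher in LGR5hi cells in both arms. All 8 enteroendocrine markers and 6 of 7 goblet cell markers tested were lower in LGR5hi cells in both arms. The 6 Paneth cell markers tested did not differ between the sorts at an adjusted limma p under 0.05 in either arm. The mean level of the 10 enterocyte markers ran over 0.33 to 4.66 on NIR LGR5hi arrays and 0.59 to 3.39 on IR LGR5hi arrays. It ran over 2.35 to 4.26 on NIR LGR5lo arrays and 3.03 to 3.24 on IR LGR5lo arrays. The 9 epithelial markers were above background on every array with flags. Irradiation left Lgr5 lower by 1.53 ± 0.29 log2 in LGR5hi cells and by 1.27 ± 0.28 log2 in LGR5lo cells, and 7 and 5 of the 13 stem cell markers fell in these sorts. The mean level of these 13 markers was 3.37 to 3.81 over IR LGR5hi arrays against 4.19 to 4.48 over NIR LGR5hi arrays, and 1.58 to 2.14 over IR LGR5lo arrays against 2.27 to 2.94 over NIR LGR5lo arrays. In a sorted bulk sample, fewer cells of a type and less RNA per cell cannot be told apart. The scanner's 75th percentile of signal was 323 to 702 units. NIR LGR5lo array 2 stood apart, with 95.6% of spots well above background against 58.9% to 73.9% on the other 15 arrays with whole files. The file of NIR LGR5hi array 1 was readable for 15329 of 62976 spots, so its values were rebuilt from the deposited series table and its background flags were not used.

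Values are log2 signals minus the 75th percentile of their array, so that 0 is the level of that percentile. Of the 16 member probes, 13 entered the tests because 4 or more arrays gave them a signal well above background, and for each gene the brightest of these stood for it. All 9 genes were tested among 27771 gene names. A change was called at an adjusted p under 0.05, over all these names.

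Irradiation raised 6 of the 9 genes in LGR5hi cells and the same 6 in LGR5lo cells: Mdm2, Mdm4, Ppm1d, Ccng1, Trp53inp1 and Zmat3. None fell in either sort, and Trp53, Trp63 and Trp73 did not pass the test. Over all genes, 6.18% were called higher and 7.28% lower after irradiation in LGR5hi cells, and 4.47% higher and 3.02% lower in LGR5lo cells. The median change of the 9 genes was 1.82 log2 in LGR5hi and 1.58 log2 in LGR5lo cells, against -0.02 and -0.13 over all genes tested. The 9 genes were chosen with earlier results of these data known, so they are not a blind pick from all genes. For the same 6 genes, the irradiated and non-irradiated arrays did not overlap in either sort. Such a separation in either direction was found for 23.8% of all genes in LGR5hi cells and 10.8% in LGR5lo cells.

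**Figure D1:**
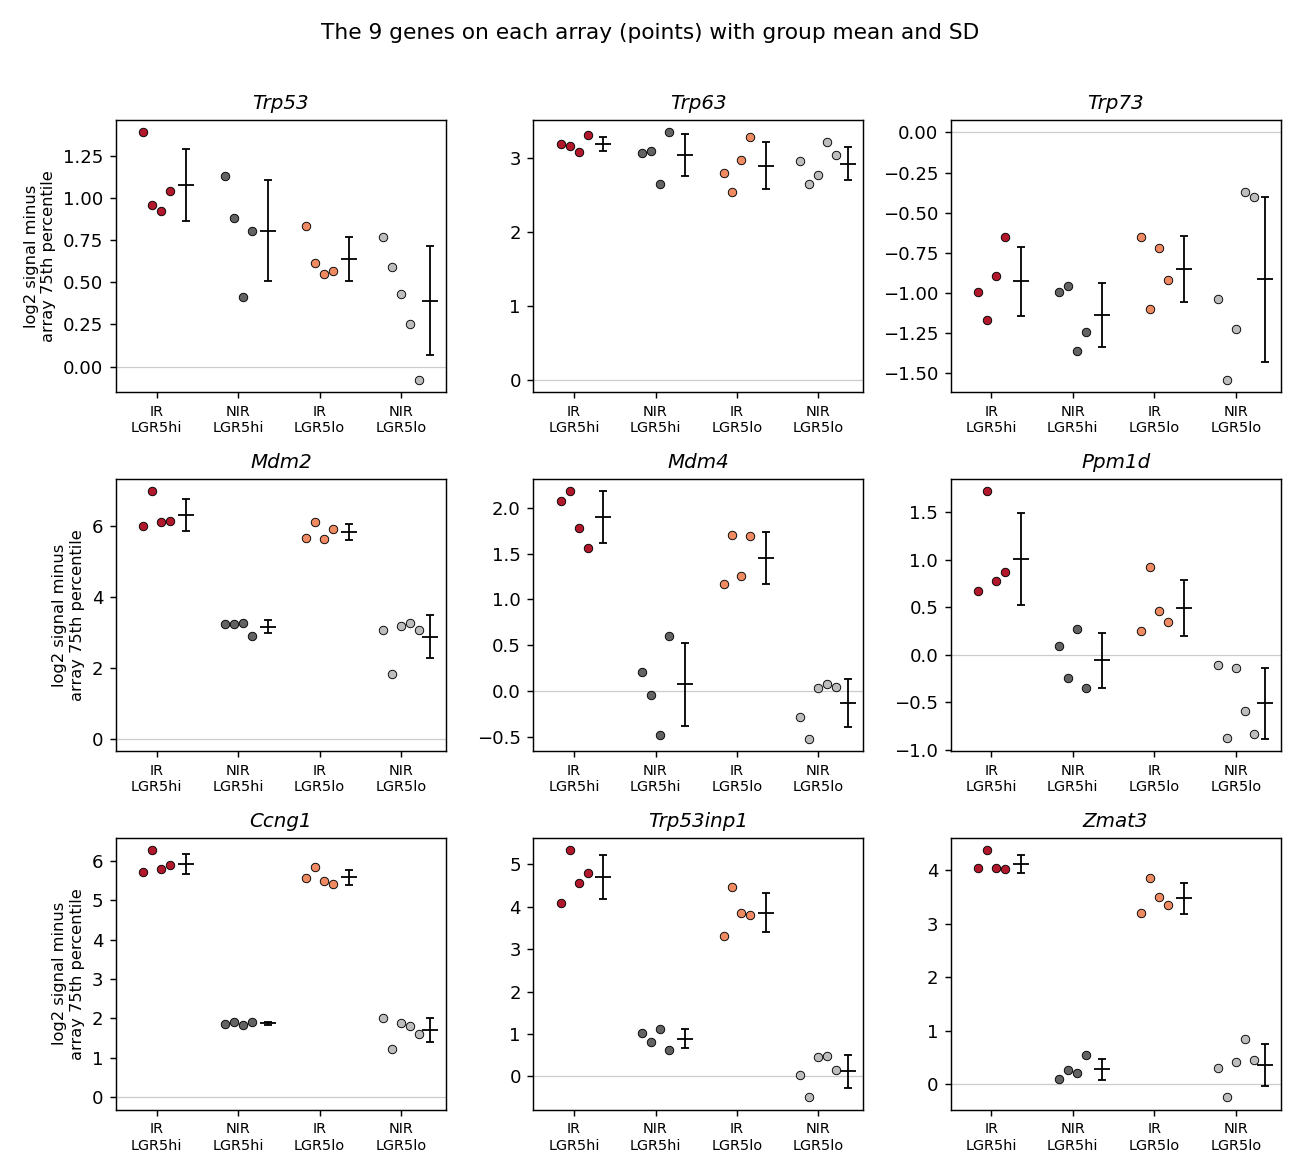
Signal relative to the 75th percentile of its array (log2) for the 9 genes (vertical axes, 1 panel per gene) in the 4 groups, with 1 point per array in replicate order and the group mean ± SD beside the points (n = 4, and 5 for NIR LGR5lo). Irradiated points lie above non-irradiated points of the same sort, with no overlap, in the panels of Mdm2, Mdm4, Ppm1d, Ccng1, Trp53inp1 and Zmat3, and overlap in those of Trp53, Trp63 and Trp73.

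Trp53 encodes p53, the transcription factor at the centre of the loop. Its signal was 1.39, 0.96, 0.92 and 1.05 in IR LGR5hi arrays 1 to 4, against 1.13, 0.88, 0.41 and 0.80 in NIR LGR5hi arrays. In LGR5lo cells it was 0.83, 0.61, 0.55 and 0.57 after irradiation, against 0.77, 0.59, 0.43, 0.25 and -0.08 without it. The irradiated and non-irradiated ranges overlapped in both sorts. The difference was 0.27 ± 0.19 log2 in LGR5hi cells (adjusted p = 0.485, 95% interval -0.14 to 0.69) and 0.25 ± 0.18 log2 in LGR5lo cells (adjusted p = 0.394, interval -0.14 to 0.64). A rise of up to 0.69 log2 in LGR5hi or 0.64 log2 in LGR5lo cells thus lies within these intervals. The single probe, shown because all statements on p53 RNA rest on it, lies on the plus strand at chr11:69404204-69404263 in the mm9 build, per the array file.
Trp53 probe: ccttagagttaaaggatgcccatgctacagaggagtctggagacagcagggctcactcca

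Trp63 and Trp73 encode the p53 paralogues p63, required for stratified epithelia, and p73, known from neural and multiciliated cell development. The brightest Trp63 probe read 3.18, 3.16, 3.08 and 3.31 in IR LGR5hi arrays, against 3.07, 3.1, 2.65 and 3.35 in NIR LGR5hi arrays. In LGR5lo cells it read 2.80, 2.53, 2.97 and 3.29 after irradiation, against 2.95, 2.65, 2.77, 3.21 and 3.04 without it. All 4 groups overlapped, and the differences of 0.14 ± 0.18 log2 in LGR5hi cells (adjusted p = 0.761) and -0.03 ± 0.18 log2 in LGR5lo cells (adjusted p = 0.928) were not called. The sign of the LGR5lo value turned under several alternatives, given in the closing section.

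The 4 Trp63 probes did not behave alike. The brightest, A_55_P2161055, was well above background on 16 of 16 arrays with flags, and A_55_P1952056 on 15. A_52_P338796 was above background on 1 array, and A_51_P216550 on none. The brightest probe holds the trinucleotide CAG repeated 6 times in a row, in capitals below, and only 6 of the 55681 probes on the array hold such a run. All 6 of those probes were above background on every array with flags, against 52.5% of all probes. The part of this repeat in the Trp63 signal was not tested. The second kept probe, A_55_P1952056, changed by 0.08 ± 0.27 log2 in LGR5hi and -0.23 ± 0.25 log2 in LGR5lo cells. The printed probe is on the plus strand at chr16:25871159-25871218 (mm9).
Trp63 probe A_55_P2161055: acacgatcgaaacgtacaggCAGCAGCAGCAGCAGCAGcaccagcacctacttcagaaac

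The brightest Trp73 probe, A_52_P410636, was above background on all 16 arrays with flags. It read -0.99, -1.17, -0.89 and -0.65 in IR LGR5hi arrays, against -0.99, -0.95, -1.36 and -1.25 in NIR LGR5hi arrays. In LGR5lo cells it read -0.65, -1.10, -0.72 and -0.92 after irradiation, against -1.03, -1.54, -1.23, -0.37 and -0.40 without it. The groups overlapped, and the differences of 0.21 ± 0.24 log2 in LGR5hi and 0.07 ± 0.22 log2 in LGR5lo cells were not called (adjusted p = 0.712 and 0.864). The 2 other Trp73 probes were above background on 4 and 2 arrays. One of them, A_55_P1988133, starts 55 bases away from the brightest and shares 5 bases with it.

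Mdm2, the ubiquitin ligase that degrades p53, read 6.0, 6.98, 6.10 and 6.15 in IR LGR5hi arrays, against 3.22, 3.23, 3.27 and 2.88 in NIR LGR5hi arrays. In LGR5lo cells Mdm2 read 5.65, 6.11, 5.64 and 5.91 after irradiation, against 3.07, 1.81, 3.18, 3.26 and 3.06 without it. Every irradiated array lay above every non-irradiated one, and the low value of 1.81 came from the array that stood apart. Mdm2 rose 8.90-fold in LGR5hi cells (3.15 ± 0.29 log2, adjusted p = 2.4e-06) and 7.73-fold in LGR5lo cells (2.95 ± 0.28 log2, adjusted p = 5.4e-06). Without NIR LGR5lo array 2 the LGR5lo change was 2.68 ± 0.19 log2. Of the 2 slides that hold all 4 groups, slide 1 gave 3.26 in LGR5hi and 3.44 in LGR5lo cells, and slide 2 gave 3.05 and 2.55. Slide 1 holds NIR LGR5lo array 2, which thus enters the slide 1 values of LGR5lo cells here and below. NIR LGR5lo array 5 was on slide 3 and enters neither.

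Mdm4, the partner of Mdm2 that blocks p53's activation domain, read 2.07, 2.18, 1.78 and 1.56 in IR LGR5hi arrays, against 0.21, -0.04, -0.47 and 0.60 in NIR LGR5hi arrays. In LGR5lo cells Mdm4 read 1.17, 1.70, 1.25 and 1.69 after irradiation, against -0.28, -0.52, 0.04, 0.08 and 0.05 without it. The groups were apart in both sorts. Mdm4 rose 3.53-fold in LGR5hi cells (1.82 ± 0.23 log2, adjusted p = 5.4e-05) and 2.98-fold in LGR5lo cells (1.58 ± 0.22 log2, adjusted p = 0.000274). Its second probe, A_52_P485905, starts 1981 bases from the first on the minus strand at chr1:134888407-134888466 (mm9) and is shown because it gave a separate reading of the same rise. There the changes were 2.02 ± 0.20 log2 in LGR5hi and 1.78 ± 0.19 log2 in LGR5lo cells. On slide 1 the brightest probe changed by 2.04 in LGR5hi and 1.83 in LGR5lo cells, and on slide 2 by 1.61 and 1.41.
Mdm4 probe A_52_P485905: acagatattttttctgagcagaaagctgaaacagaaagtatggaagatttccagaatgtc

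Ppm1d encodes the phosphatase Wip1, which removes activating phosphates from p53 and from its upstream kinase. It read 0.66, 1.72, 0.78 and 0.87 in IR LGR5hi arrays, against 0.09, -0.25, 0.27 and -0.35 in NIR LGR5hi arrays. In LGR5lo cells it read 0.25, 0.92, 0.46 and 0.34 after irradiation, against -0.10, -0.88, -0.14, -0.60 and -0.84 without it. The groups did not overlap, but the gap between the nearest irradiated and non-irradiated values was narrower than in Mdm2 or Mdm4. Ppm1d rose 2.09-fold in LGR5hi cells (1.07 ± 0.26 log2, adjusted p = 0.0101) and 2.01-fold in LGR5lo cells (1.0 ± 0.24 log2, adjusted p = 0.0195). It was the smallest of the 6 called changes in both sorts. The LGR5hi call was lost under median centring (adjusted p = 0.0748), and the LGR5lo call was lost without IR LGR5lo array 2 (adjusted p = 0.0657), without IR LGR5lo array 3 (adjusted p = 0.0529) and in the fit of the LGR5lo groups alone (adjusted p = 0.0628). On slide 1 Ppm1d changed by 1.27 in LGR5hi and 1.08 in LGR5lo cells, and on slide 2 by 0.86 and 0.77.

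Ccng1, cyclin G1, which brings a phosphatase to Mdm2, read 5.71, 6.27, 5.78 and 5.88 in IR LGR5hi arrays, against 1.86, 1.90, 1.83 and 1.92 in NIR LGR5hi arrays. In LGR5lo cells Ccng1 read 5.56, 5.84, 5.48 and 5.41 after irradiation, against 2.02, 1.23, 1.89, 1.80 and 1.59 without it. The non-irradiated LGR5hi arrays lay within 0.1 log2 of each other, and the gap to the irradiated arrays was over 3 log2 in both sorts. Ccng1 rose 16.4-fold in LGR5hi cells (4.03 ± 0.18 log2, adjusted p = 1.6e-09) and 14.6-fold in LGR5lo cells (3.87 ± 0.17 log2, adjusted p = 2.0e-09). These were the largest changes among the 9 genes in each sort. On slide 1 Ccng1 changed by 4.11 in LGR5hi and 4.08 in LGR5lo cells, and on slide 2 by 3.95 and 3.6.

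Trp53inp1, a stress-induced nuclear protein that promotes p53 phosphorylation and autophagy, read 4.09, 5.34, 4.55 and 4.79 in IR LGR5hi arrays, against 1.02, 0.80, 1.12 and 0.62 in NIR LGR5hi arrays. In LGR5lo cells it read 3.32, 4.46, 3.85 and 3.81 after irradiation, against 0.03, -0.49, 0.45, 0.47 and 0.14 without it. Every irradiated value was above every non-irradiated one. Trp53inp1 rose 13.9-fold in LGR5hi cells (3.80 ± 0.29 log2, adjusted p = 2.9e-07) and 13.4-fold in LGR5lo cells (3.74 ± 0.27 log2, adjusted p = 3.6e-07). On slide 1 the change was 3.80 in LGR5hi and 4.12 in LGR5lo cells, and on slide 2 it was 3.80 and 3.37. The second probe, A_55_P1973906, which starts 8644 bases away on the plus strand at chr4:11092530-11092589 (mm9), is printed because it gave smaller changes. These were 2.50 ± 0.28 log2 in LGR5hi cells and 1.62 ± 0.27 log2 in LGR5lo cells, both called. Neither the transcript isoform nor the exon that each probe reads was annotated in the sources used here.
Trp53inp1 probe A_55_P1973906: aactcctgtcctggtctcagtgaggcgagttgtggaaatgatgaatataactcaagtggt

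Zmat3, a zinc finger RNA-binding protein that acts on the stability and splicing of messenger RNAs, read 4.05, 4.37, 4.03 and 4.02 in IR LGR5hi arrays, against 0.10, 0.26, 0.21 and 0.55 in NIR LGR5hi arrays. In LGR5lo cells Zmat3 read 3.19, 3.85, 3.50 and 3.34 after irradiation, against 0.30, -0.25, 0.42, 0.84 and 0.44 without it. The groups were far apart in both sorts, and all 4 IR LGR5hi arrays also lay above all 4 IR LGR5lo arrays. Zmat3 rose 14.3-fold in LGR5hi cells (3.84 ± 0.21 log2, adjusted p = 8.9e-09) and 8.69-fold in LGR5lo cells (3.12 ± 0.20 log2, adjusted p = 8.6e-08). On slide 1 Zmat3 changed by 4.03 in LGR5hi and 3.50 in LGR5lo cells, and on slide 2 by 3.65 and 2.79.

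**Figure D2:**
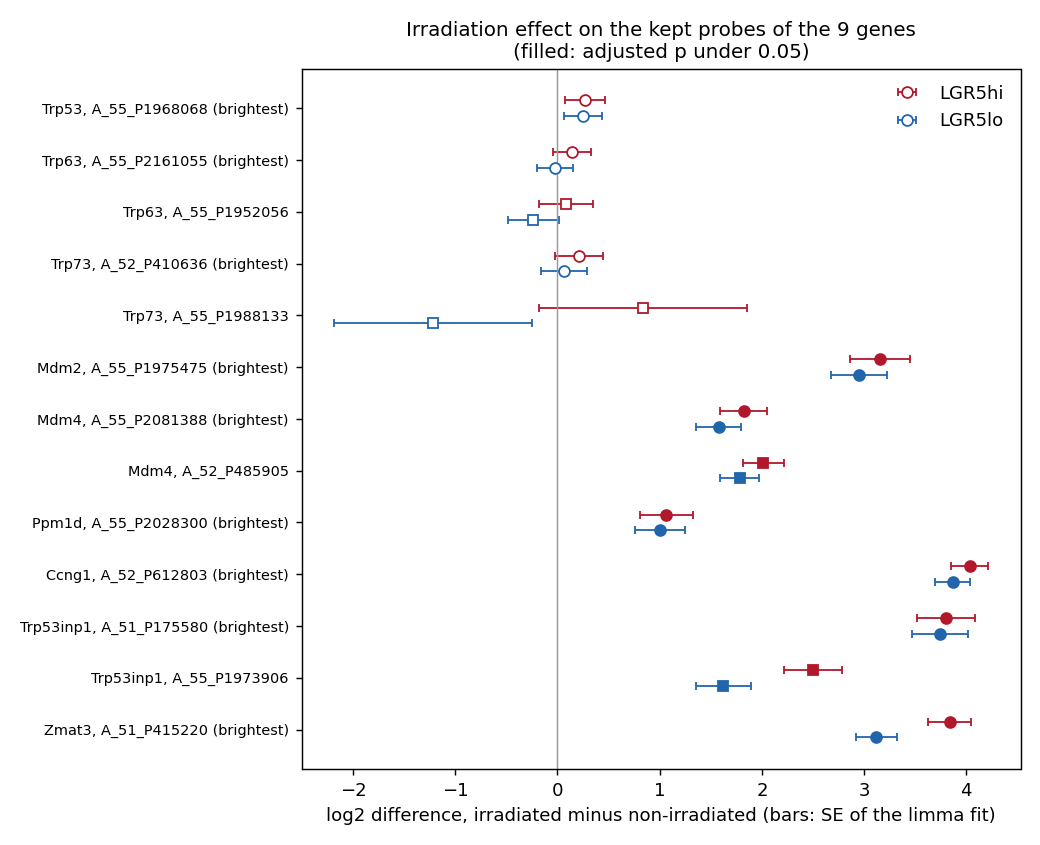
Log2 difference, irradiated minus non-irradiated (horizontal axis), with its standard error from the limma fit, for the 13 kept probes of the 9 genes in LGR5hi (red) and LGR5lo cells (blue). Filled symbols passed an adjusted p of 0.05 over the 41444 kept probes. Both probes of Mdm4 and both probes of Trp53inp1 are filled in both sorts, and no probe of Trp53, Trp63 or Trp73 is.

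Tested on its own among all 41444 kept probes, each of the 8 kept probes of the 6 called genes passed the threshold in both sorts. The background was 12% of probes called in LGR5hi cells and 6.26% in LGR5lo cells, in either direction. None of the 5 kept probes of the 3 transcription factors passed.

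The question whether the sorts differed in their response was put to the difference of the irradiation effects, LGR5hi minus LGR5lo. None of the 9 genes was called, against 0.0396% of all genes (11 of 27771). At an unadjusted limma p under 0.05, 1 of the 9 passed (Zmat3), as 6.8% of all genes did. The largest difference was that of Zmat3, at 0.72 ± 0.29 log2 (adjusted p = 0.695, 95% interval 0.11 to 1.33). For the other 5 genes that rose, the differences were 0.06 to 0.24 log2, and the widest of their 95% intervals, that of Mdm2, was -0.65 to 1.06. The second Trp53inp1 probe differed by 0.88 ± 0.39 log2 (adjusted p = 0.758), where the brightest differed by 0.06 ± 0.39.

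LGR5hi and LGR5lo cells were also compared within each arm. None of the 9 genes was called in the fit without a block. Over all genes, 6.31% were called after irradiation and 9.55% without it. At an unadjusted limma p under 0.05, 3 of the 9 genes passed after irradiation (Trp53, Trp53inp1 and Zmat3), as 17.9% of all genes did, and 2 without it (Trp53 and Trp53inp1), as 25% of all genes did. After irradiation the difference was 0.83 ± 0.29 log2 for Trp53inp1 (adjusted p = 0.113), 0.65 ± 0.21 log2 for Zmat3 (adjusted p = 0.0861) and 0.44 ± 0.19 log2 for Trp53 (adjusted p = 0.242). Within an arm, arrays of the 2 sorts that share a replicate number deviated from their group means in a correlated way, and the number was therefore also fitted as a block. With arm and number as a random block, Trp53inp1 (adjusted p = 0.032) and Zmat3 (adjusted p = 0.0249) were called higher in LGR5hi cells after irradiation, where 10.4% of all genes were called. Trp53inp1 was called without irradiation too, at 0.77 log2 (adjusted p = 0.0301), where 15.1% of all genes were. Its second kept probe, A_55_P1973906, differed by -0.18 ± 0.27 log2 without irradiation and by 0.70 ± 0.28 after it. These values came from the fit without a block, and neither was called. With number as a block within the irradiated arm alone, a fit added after the data had been seen, 4 of the 9 genes were called: Trp53inp1 (adjusted p = 0.00762), Zmat3 (0.0157), Trp53 (0.0285) and Ppm1d (0.0368). That fit called 19.2% of all genes. With array weights and no block, Trp53 (adjusted p = 0.0365), Trp53inp1 (0.0349) and Zmat3 (0.00272) were called after irradiation, where 18.1% of all genes were. In a fit of the irradiated groups alone only Zmat3 was called (adjusted p = 0.042), where 11.2% of all genes were. Number as a block within the non-irradiated arm called none of the 9 and 1.35% of all genes.

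The plot of same-numbered pairs shows the sorts side by side. There and in the counts below, each gene is read by its brightest kept probe. Of the 9 genes, Trp53 and Zmat3 had sorts that did not overlap after irradiation, as 21.1% of all genes did, and Trp53inp1 had such sorts without irradiation, as 10.9% of all genes did. On the second Trp53inp1 probe the non-irradiated sorts overlapped, at -2.29 to -1.95 in LGR5hi and -2.34 to -1.24 in LGR5lo cells. Within irradiated pairs, LGR5hi minus LGR5lo was above 0 in 4 of 4 pairs for 7 of the 9 genes: Trp53, Trp63, Mdm2, Ppm1d, Ccng1, Trp53inp1 and Zmat3. Of all genes, 25.4% had this pattern. The 4 irradiated pairs differed by 0.70 to 0.98 log2 for Trp53inp1 and by 0.52 to 0.86 for Zmat3. Trp53 differed by 0.35 to 0.56, Ppm1d by 0.32 to 0.80 and Ccng1 by 0.15 to 0.47. In every irradiated pair, 8 of the 9 genes were higher in the LGR5hi array. Without irradiation the number was 7, 9, 3 and 6 of 9 in pairs 1 to 4, and only Ppm1d and Trp53inp1 were higher in LGR5hi cells in all 4 pairs, a pattern that 17.6% of all genes had. The 9 of 9 came from the pair that holds NIR LGR5lo array 2. The share of all genes higher in LGR5hi cells within a single pair was not taken, so the counts per pair have no background. The 9 genes of a pair share its 2 arrays and are not replicates. The cell makeup of the sorts differed alongside. The median LGR5hi minus LGR5lo difference of the stem cell markers was 1.41 log2 after irradiation and 1.61 without it, that of the enteroendocrine markers -4.74 and -3.94, and that of the goblet cell markers -2.91 and -2.44. Their part in the differences of the 9 genes was not tested.

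**Figure D3:**
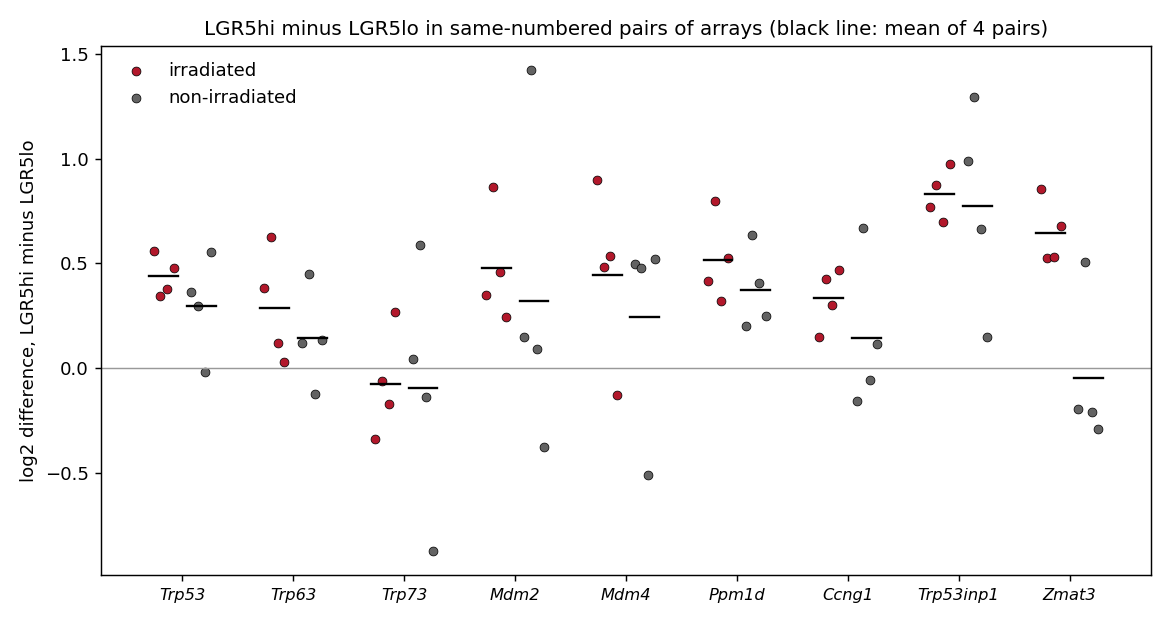
Log2 difference, LGR5hi minus LGR5lo (vertical axis), in the 4 same-numbered pairs of irradiated arrays (red) and the 4 of non-irradiated arrays (grey) for each of the 9 genes, with the mean of the pairs as a line. Each gene is read by its brightest kept probe. Trp53inp1 is above 0 in all 8 pairs, and Zmat3 in 4 of 4 irradiated pairs and 1 of 4 non-irradiated pairs.

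On the brightest probes, the order of the 4 group means was the same for Mdm2, Mdm4, Ppm1d, Ccng1 and Trp53inp1. From high to low it was IR LGR5hi, IR LGR5lo, NIR LGR5hi and NIR LGR5lo. For Ccng1 these means were 5.91 ± 0.25, 5.57 ± 0.19, 1.88 ± 0.04 and 1.71 ± 0.31 (SD, n = 4, 4, 4 and 5). Within each arm, neighbours in this order did not differ beyond the test in the fit with equal array weights and no block. For Zmat3 the 2 non-irradiated groups changed places, at 0.35 ± 0.39 in NIR LGR5lo and 0.28 ± 0.19 in NIR LGR5hi cells, and did not differ (-0.07 ± 0.20 log2, adjusted p = 0.839). They also changed places on the second Trp53inp1 probe, at -1.88 ± 0.43 in NIR LGR5lo and -2.06 ± 0.15 in NIR LGR5hi cells. Trp53 had another order: IR LGR5hi 1.08 ± 0.21, NIR LGR5hi 0.81 ± 0.30, IR LGR5lo 0.64 ± 0.13 and NIR LGR5lo 0.39 ± 0.33. With equal array weights and no block, no contrast tested between those 4 Trp53 means was called.

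Promoter sequences were looked up because 6 of the genes rose together and p53 binds DNA through pairs of a consensus decamer. The RefSeq promoter table for GRCm38.p6 (250 bases before to 50 after a start site) held 8 promoters of 6 of the 9 genes: Trp53, Trp73, Mdm2, Mdm4, Ppm1d and Ccng1. A single p53 decamer with no mismatch, searched on both strands, was found in 4 of these 8 promoters and in 8.36% of all 32851 promoters in the table. The 4 promoters were those of Mdm2, Ccng1, Ppm1d and Trp53, with the decamer starting 186, 185, 132 and 75 bases upstream of the start site. They are printed below with the decamer in capitals, in the direction of transcription, because 3 of these genes rose after irradiation and 1, Trp53, did not pass the test. The letters CATG, which can form the decamer's core, were in 1 of the 8 promoters and in 61.1% of all promoters. The letters TATAAA on either strand were in 1 of the 8 promoters, that of Trp53, against 13.6% of all, and this match lay on the opposite strand, 248 bases upstream of the start site. A match is a description of letters in this window and shows no binding.
Mdm2, minus strand, chr10:117710709-117711008: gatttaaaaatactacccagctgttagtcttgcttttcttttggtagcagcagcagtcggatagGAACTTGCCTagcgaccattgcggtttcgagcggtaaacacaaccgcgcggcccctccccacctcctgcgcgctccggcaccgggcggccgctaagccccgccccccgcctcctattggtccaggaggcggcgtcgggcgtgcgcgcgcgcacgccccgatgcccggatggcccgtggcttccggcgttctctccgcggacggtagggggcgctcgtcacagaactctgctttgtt
Ccng1, minus strand, chr11:40755237-40755536: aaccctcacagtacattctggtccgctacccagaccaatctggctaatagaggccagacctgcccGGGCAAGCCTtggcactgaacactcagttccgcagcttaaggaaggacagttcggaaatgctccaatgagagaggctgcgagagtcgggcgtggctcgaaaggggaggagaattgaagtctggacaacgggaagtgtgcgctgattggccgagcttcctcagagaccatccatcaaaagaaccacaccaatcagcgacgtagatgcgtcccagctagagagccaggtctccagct
Ppm1d, plus strand, chr11:85311004-85311303: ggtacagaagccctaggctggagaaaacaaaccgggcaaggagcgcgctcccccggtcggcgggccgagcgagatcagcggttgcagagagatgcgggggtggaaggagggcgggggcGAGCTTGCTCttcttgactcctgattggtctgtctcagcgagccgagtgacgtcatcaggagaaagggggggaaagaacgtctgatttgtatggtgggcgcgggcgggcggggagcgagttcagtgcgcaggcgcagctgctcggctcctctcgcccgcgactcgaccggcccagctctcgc
Trp53, plus strand, chr11:69580109-69580408: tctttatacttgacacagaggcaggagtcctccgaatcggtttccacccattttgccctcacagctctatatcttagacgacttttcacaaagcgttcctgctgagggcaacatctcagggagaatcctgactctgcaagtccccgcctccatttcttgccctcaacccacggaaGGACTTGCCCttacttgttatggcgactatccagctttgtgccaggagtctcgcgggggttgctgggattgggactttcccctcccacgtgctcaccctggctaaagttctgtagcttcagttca

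The other genes of the pathway were described from 3 lists, written with earlier results of these data known. Of 39 tested p53 targets outside the family, 29 rose and 1 fell in LGR5hi cells, and 31 rose and none fell in LGR5lo cells. Over all genes tested, 6.18% rose and 7.28% fell in LGR5hi cells, and 4.47% rose and 3.02% fell in LGR5lo cells. The median change of the targets was 2.25 log2 in LGR5hi and 2.05 in LGR5lo cells, against -0.02 and -0.13 over all genes. The 1 target that fell was Ddb2, a DNA damage recognition protein named here after its value was seen, at -0.80 log2 in LGR5hi cells. The largest rise in both sorts was that of Zfp365, at 9.04 ± 0.52 log2 in LGR5hi and 6.09 ± 0.50 in LGR5lo cells. Phlda3, an Akt inhibitor, rose by 5.66 ± 0.23 log2 in LGR5hi and 6.0 ± 0.22 in LGR5lo cells. Gdf15, a secreted stress cytokine, rose by 5.62 ± 0.27 and 5.63 ± 0.25 log2 in these sorts. Cdkn1a, the cell cycle inhibitor p21, rose by 4.91 ± 0.31 log2 in LGR5hi and 2.90 ± 0.30 in LGR5lo cells, and the difference of 2.01 ± 0.43 was not called (adjusted p = 0.193). Its level differed between the sorts before irradiation, with LGR5hi minus LGR5lo at -2.43 ± 0.30 log2 (limma, adjusted p = 6.2e-05). After irradiation this value was -0.41 ± 0.31 log2 and was not called (adjusted p = 0.579). Among the 9 genes only Ccng1, Trp53inp1, Zmat3 and Mdm2 in LGR5hi cells, and the same 4 in LGR5lo cells, changed by more than the median of these targets.

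The other 2 lists hold genes listed as activators, cofactors or inhibitors of p53 that are not among the members described above. Whether any of them takes part in a feedback loop of p53 was not tested. Of all genes tested, as given above, 6.18% rose and 7.28% fell in LGR5hi cells, and 4.47% rose and 3.02% fell in LGR5lo cells. Of 30 activators and cofactors, 1 rose and 3 fell in LGR5hi cells, and 1 rose and none fell in LGR5lo cells, with medians of -0.18 and -0.07 log2 against -0.02 and -0.13 over all genes. The 1 that rose in both sorts was Zfp385a, a zinc finger protein that binds p53, at 2.58 ± 0.27 log2 in LGR5hi and 1.60 ± 0.26 in LGR5lo cells. The 3 that fell in LGR5hi cells were Setd7, a lysine methyltransferase (-0.77 ± 0.19), Mdc1, an adaptor at DNA breaks (-0.74 ± 0.18), and Prkdc, the catalytic subunit of the DNA-dependent kinase (-0.60 ± 0.16). Of 23 tested inhibitors outside the family, 3 rose and 3 fell in LGR5hi cells, and 3 rose and 1 fell in LGR5lo cells. Ppp1r13l, the inhibitor iASPP, rose by 2.87 ± 0.30 log2 in LGR5hi and 2.14 ± 0.29 in LGR5lo cells, and Siva1, an apoptosis regulator, rose by 1.86 ± 0.26 and 1.82 ± 0.25. Rchy1, the ubiquitin ligase Pirh2, rose by 0.80 ± 0.19 log2 in LGR5hi and 0.67 ± 0.18 in LGR5lo cells. Aurka, the mitotic kinase, fell by 2.25 log2 in LGR5hi and by 0.95 log2 in LGR5lo cells. The other 2 that fell in LGR5hi cells were Kmt5a, a histone methyltransferase (-0.60 ± 0.15 log2), and Trim28, a transcriptional corepressor named after its value was seen (-0.64 log2).

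**Figure D4:**
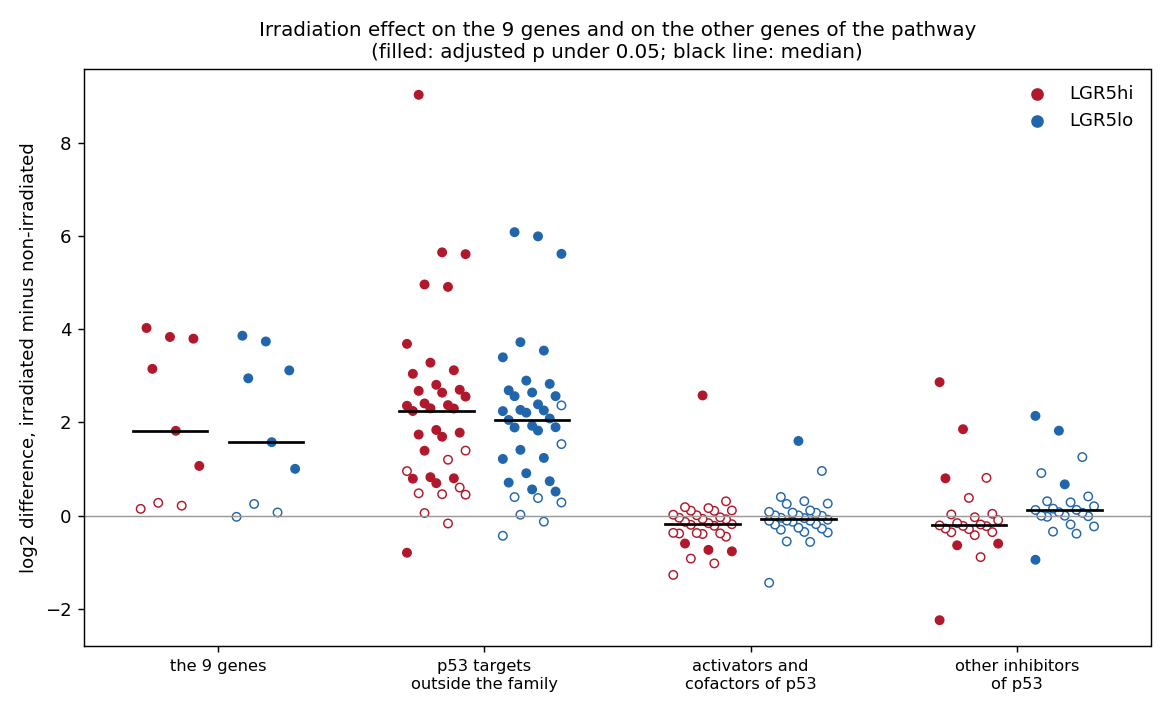
Log2 difference, irradiated minus non-irradiated (vertical axis), in LGR5hi (red) and LGR5lo cells (blue) for the 9 genes, 39 p53 targets, 30 activators and cofactors and 23 other inhibitors, with filled points for an adjusted p under 0.05 and the median of each list as a line. The medians of the 9 genes (1.82 in LGR5hi, 1.58 in LGR5lo) and of the targets (2.25 and 2.05) lie above 1 log2, and those of the other lists lie between -0.21 and 0.12.

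The profiles of the 6 called genes over the 17 arrays were compared with those of 17898 genes in the gene table, by the root mean square difference of log2 values after each gene's own mean was removed. Zmat3 lay nearest to Dcxr (0.20), Ccng1 (0.33) and Mdm2 (0.36). Ccng1 lay nearest to Dcxr (0.29), Zmat3 (0.33) and Sulf2 (0.38), and Trp53inp1 to Ccng1 (0.39), Zmat3 (0.44) and Ephx1 (0.44). Mdm2 lay nearest to Abhd4 (0.30), Gtse1 (0.34) and Ephx1 (0.35), all 3 from the p53 target list. Mdm4 was nearest to Agpat4 (0.23), Pdrg1 (0.25) and Ercc5 (0.26), and Ppm1d to Exoc2 (0.18), Plpbp (0.19) and Emd (0.20). Members were thus among the nearest 3 for Zmat3, Ccng1 and Trp53inp1, and for none of Mdm2, Mdm4 and Ppm1d. The arrays are shared by all genes, so these distances also hold whatever moves whole arrays.

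The range of each irradiation effect was taken over 16 other settings and over 17 fits that left out 1 array each. Ccng1 and Zmat3 were called in both sorts in all of these fits. Mdm2, Mdm4 and Trp53inp1 were called in every fit with an array left out, and lost a call only within single slides. Ccng1 ranged over 3.91 to 4.11 log2 in LGR5hi and 3.6 to 4.12 in LGR5lo cells. The widest range, that of Trp53inp1 in LGR5lo cells, was 2.68 to 4.12, with its low end where a gene's probes were averaged. Without the rebuilt NIR LGR5hi array 1, the 6 changes in LGR5hi cells were 4.03 for Ccng1, 3.84 for Trp53inp1, 3.78 for Zmat3, 3.18 for Mdm2, 1.87 for Mdm4 and 1.12 for Ppm1d. Without NIR LGR5lo array 2, those in LGR5lo cells were 3.75, 3.59, 2.97, 2.68, 1.48 and 0.91 in the same order of genes, and all stayed called.

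**Figure D5:**
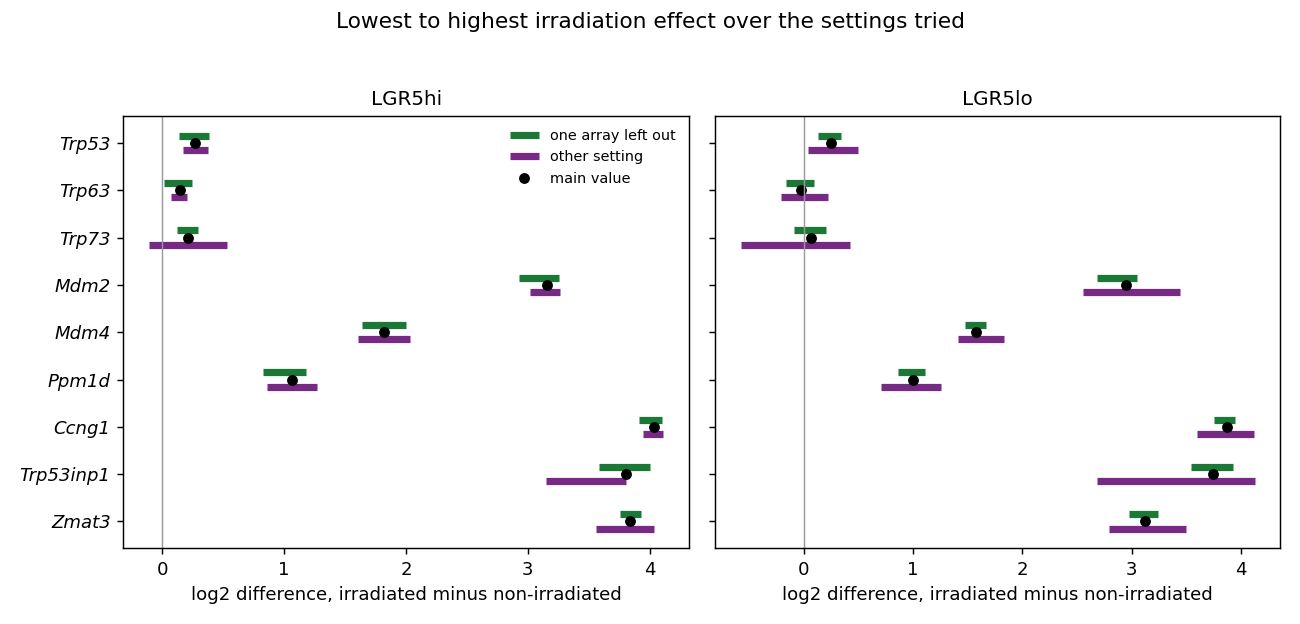
Lowest to highest log2 difference, irradiated minus non-irradiated (horizontal axes), for the 9 genes in LGR5hi (left) and LGR5lo cells (right), over 17 fits that each leave out 1 array (green) and 16 other settings (purple), with the main value as a black point. The ranges of the 6 called genes stay above 0.7 log2 in both sorts, and those of Trp63 in LGR5lo and of Trp73 in both sorts cross 0.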

How the data were processed

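RNA of 17 sorted samples was labelled with Cy3 and hybridised to 1-colour Agilent mouse arrays, per the labels. The deposited scanner files hold background-subtracted intensity per spot from Agilent Feature Extraction 10.7.3.1, per the file headers. The log2 values of the deposited series table follow a construction that was worked out from them: the array's 75th percentile and then each probe's median over arrays were subtracted. The damaged NIR LGR5hi array 1 was rebuilt from that table. The same rebuilding of the 16 whole arrays met their own values within 0.02 log2 for 100% of probes. Its readable signals per spot came as other text columns in the deposited file, and were used only to check the rebuilding: minus the header's 75th percentile, they met none of the 13422 rebuilt probe values within 0.02 log2, and 100% of them after a constant of 0.194 log2 was removed. On the whole arrays the header's percentile lay 0.11 to 0.21 log2 above that over probes.

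Spots with outlier flags were left out, replicate spots averaged, and log2 intensity taken minus the array's 75th percentile over 55681 probes. The 41444 probes well above background on at least 4 arrays were kept, and the brightest stood for its gene. Of 27235 probes whose accession matched the gene table, 2838 took a newer symbol. Group means over 17 arrays were fitted with limma 3.58.1 in R 4.3.3 (lmFit, eBayes), 2-sided, with Benjamini-Hochberg adjustment over 27771 gene names and a threshold of 0.05. The ± beside a log2 difference is this fit's standard error. Tables and figures were made with pandas 2.3.3, numpy 2.4.6 and matplotlib 3.10.9 under Python 3.11.15. The number of arrays limits the precision.

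The members and lists were chosen with earlier results of these data known. Genes named beside the members were up to 5 per list by smallest p for irradiation in each sort and up to 2 for other comparisons, the 3 nearest profiles of each called member, and checks of the sort. Alternatives were quantile normalization, median centring, normexp with an offset of 50 on the 16 whole arrays, no filter or a filter on at least 8 arrays, averaged probes per gene, the series table, sex, replicate number or slide as a block, single slides, weighted arrays, a variance prior with trend and robust options, fits limited to 2 groups, and leaving out 1 array at a time.

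Pairing was read from the replicate numbers in the labels. Same-numbered LGR5hi and LGR5lo arrays deviated together from their group means. The correlations were 0.174 to 0.456 over the 4 irradiated pairs and 0.121 to 0.346 over the 4 non-irradiated pairs. Within an arm such arrays also share sex and slide, so a common origin of the samples cannot be told apart from these. Same-numbered irradiated and non-irradiated arrays did not all deviate together, with -0.03 to 0.16 in LGR5hi and -0.10 to 0.22 in LGR5lo cells.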

Additional observations from a re-analysis of the deposited data

Results flagged for a closer look

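For 52 combinations of a member probe and a group, the gap between an extreme array and its nearest neighbour was set against the range of the group, and an array stood out in 6 of these combinations, on 4 different arrays. Chance gives about 1 in 20 groups. Mdm2 stood out in 3 groups: IR LGR5hi array 2 read 6.98 where the others read 6.0 to 6.15, NIR LGR5hi array 4 read 2.88 where the others read 3.22 to 3.27, and NIR LGR5lo array 2 read 1.81 where the others read 3.06 to 3.26. Zmat3 read 4.37 on IR LGR5hi array 2, above the 4.02 to 4.05 of the others. The second Trp53inp1 probe read -2.29 on NIR LGR5hi array 3, below the -2.0 to -1.95 of the others. The Trp73 probe A_55_P1988133 read 0.20 on NIR LGR5lo array 2, above the -6.42 to -4.73 of the others. That array had 95.6% of its spots well above background. In no case did leaving out the array end the call of Mdm2, Zmat3 or Trp53inp1 for irradiation.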

How the results depend on the processing

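The 6 members called in LGR5hi cells were 4 to 6 over the other settings and 6 in each fit with an array left out, and the 6 in LGR5lo cells were 2 to 6 and 5 to 6. The count of 2 came from slide 1 alone, with 2 arrays per group. Within single slides the Mdm2, Mdm4, Ppm1d and, in LGR5lo cells, Trp53inp1 changes kept their direction and lost their call on at least 1 slide, with fewer samples. With replicate number as a fixed block, which pairs nothing for irradiation, the Ppm1d change in LGR5lo cells was 0.92 log2 (adjusted p = 0.055) and no other irradiation call of the members changed. No member was called in the difference of effects under any of the alternatives run (limma, unadjusted p under 0.05 for 1 of 9, against 6.8% of all genes). After irradiation, members called between the sorts numbered 0 in the main fit, 2 with arm and number as a random replicate block, 3 with array weights (18.1% of all genes), 1 with only the compared groups (11.2%) and 4 with the replicate block within the arm, and 0 to 1 with an array left out (Zmat3, adjusted p = 0.0223 without NIR LGR5lo array 2). Without irradiation 1 was called with the random replicate block, and the pairing changed no other call of the members. Over all genes, LGR5hi calls numbered 265 to 7090 over the other settings and 2842 to 5191 with an array left out, against 3740 in the main fit. In LGR5lo cells they numbered 42 to 3391 and 1179 to 2538, against 2080. For the difference of effects they numbered 0 to 54 and 0 to 26, against 11. The sort comparisons gave 118 to 5333 and 1062 to 2867 after irradiation, against 1751, and 105 to 4192 and 1439 to 4226 without it, against 2651. Scaling moved the median of all genes in LGR5lo cells to 0.12 log2 under median centring and 0.07 under quantile normalization, against -0.13, and the split of calls to 1055 higher and 223 lower under median centring, against 1242 and 838.

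Members that were not called turned sign as follows, and the cause was not tested. For the difference of effects under median centring, the values were -0.27 for Trp53, -0.13 for Trp63, -0.15 for Trp73, -0.095 for Mdm2, -0.053 for Mdm4, -0.24 for Ppm1d, -0.13 for Ccng1 and -0.24 for Trp53inp1. Under quantile normalization they were -0.27 for Trp73 and -0.15 for Ppm1d, on slide 1 alone -0.52 for Trp73, -0.18 for Mdm2 and -0.32 for Trp53inp1, and with array weights -0.032 for Trp73. With an array left out, the difference ranged over -0.11 to 0.14 for Trp53, -0.021 to 0.47 for Mdm2, -0.17 to 0.20 for Ppm1d and -0.15 to 0.26 for Trp53inp1. The irradiation effect on Trp63 in LGR5lo cells was 0.22 under median centring, 0.039 with normexp, 0.00051 with replicate number or slide as a block, 0.13 on slide 2 alone and 0.042 with array weights, and ranged over -0.16 to 0.093 with an array left out. That on Trp73 was -0.11 on slide 1 alone in LGR5hi cells. In LGR5lo cells the Trp73 effect was -0.58 with a gene's probes averaged and -0.022 on slide 2 alone, and ranged over -0.091 to 0.20 with an array left out. Between the sorts after irradiation, Trp73 differed by 0.057 with probes averaged and 0.048 on slide 2 alone, and by -0.17 to 0.0026 with an array left out. Without irradiation, Trp63 differed by -0.038 under quantile normalization and -0.026 with probes averaged, Trp73 by 0.16, 0.023 and 0.32 under quantile normalization, median centring and slide 1 alone, and Mdm2 by -0.14 on slide 2 alone. Zmat3 differed by 0.18 under median centring, 0.048 with normexp and 0.16 on slide 1 alone, and by -0.22 to 0.053 with an array left out.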
